A study of Mus musculus with 8 samples.

Results

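The genes described here are 50 genes of DNA replication and the cell cycle, chosen by name from a list, out of 21755 genes named in any of the 8 count tables. They code for the machinery that licenses and copies DNA, the cyclins and kinases that drive S phase and mitosis, the centromere and spindle proteins, and the proliferation marker Mki67. All 50 had at least 50 unique molecular identifiers (UMIs, tags that mark each captured RNA molecule) over the 8 libraries, from 115 for Kif20a to 35650 for Pcna, and 198316 in all. Mybl2 has no row in the control day 1 table and was taken as 0 there.

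Dividing cells load the MCM helicase on replication origins in G1, copy the genome in S phase and separate the chromosomes in mitosis. The genes of these steps are switched on in waves, S phase genes mainly by E2F factors and mitotic genes by complexes that bind the CCAAT box and the cell cycle homology region. In a healing wound most neutrophils and monocytes arrive from blood after their last division, while T cells, NK cells, some macrophages and dendritic cell precursors can divide in the tissue.

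CD45+ immune cells were sorted from full skin wounds of male C57BL/6J mice on days 1, 3, 5 and 7. The diabetic group had received streptozotocin (STZ, a toxin of pancreatic beta cells) at 120 mg/kg when 4 weeks old and was used once its blood glucose passed the limit set for diabetes. The control group had the same wounds without diabetes, and its age and any vehicle injection are not given in the sources used here. Each library pooled the wounds of 5 mice and there was 1 library for each group and day, so the intervals given below cover counting error only and not the spread between mice, which the pooling hides. STZ diabetes models loss of insulin and not the insulin resistance of type 2 diabetes.

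The tables held 19236522 to 33842509 UMIs each, and 35215 barcodes were kept as cells, with a median of 2573 to 8219 UMIs per cell in a library. The control day 5 library stood apart from the other 7. Of its barcodes 28.5% were removed by the filter, its cells were the deepest, and 7.82% of them were neutrophil-like, against 21.1% to 60.1% in the other libraries. Cells were clustered without the 50 genes and most other mitotic and replication genes, and clusters were named from marker genes as T cell-like (2483 cells), NK cell-like (502), dendritic-like (2725), macrophage-like (6048), monocyte-like (4536), osteoclast-like (377) and neutrophil-like (13811). The osteoclast-like cluster was led by Ctsk, Atp6v0d2, Acp5 and Mmp9 and had a median of 22609 UMIs per cell. Immunoglobulin genes (Igha, Igkc, Ighg2b) were among the leading genes of 2 neutrophil-like clusters and interferon genes (Rsad2, Ifit3) led 1 neutrophil-like and 1 monocyte-like cluster. Clusters holding 12.9% of the cells stayed unnamed. The doublet caller marked 105 cells, under the 0.5% taken here as the least for a caller that works, so its calls were not used, and cells holding more than 1 cell's RNA may remain.

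The promoter sequences show how the 50 genes divide by the motifs written in them. Of the 50 genes, 40 had a promoter in the RefSeq table for GRCm38.p6, from 250 bases before to 50 bases after the start of the transcript. Motifs were searched on both strands, and the listed promoter of each gene was compared with those of all 27025 genes. The CCAAT box, spelt CCAAT, was found in 31 of the 40 (77.5%) and in 37.9% of all genes. The cell cycle homology region, spelt TTTGAA, was found in 18 (45.0%) and in 18.1% of all genes, and 17 of the 40 (42.5%) held it together with a CCAAT box, against 7.12% of all genes. An E2F-type motif (TTCCCGC as the base form, with TTGGCGC and also TTCGCGC as variants, and lastly TTGCCGC) was found in 15 (37.5%) and in 9.69% of all genes. TTCGCGC and TTGGCGC can overlap on opposite strands and then mark 1 stretch. The replication and G1/S genes held an E2F-type motif in 10 of 16 and TTTGAA in 1 of 16 (Mcm2), while the mitotic and chromosome genes held an E2F-type motif in 5 of 24 and TTTGAA in 17 of 24. A match describes these letters only and is not a measured binding site. The promoters of Mcm6, a helicase subunit, and of Mki67, a coat protein of mitotic chromosomes, are shown as examples that hold several of these motifs. They are not typical of every gene, since few mitotic genes share the E2F-type motif of Mki67, and in the same 250 bases Pcna held a CCAAT box and no E2F-type motif and Cenpa held CCAAT boxes and no TTTGAA. Both are on the minus strand and both windows lie before the start of the transcript, with the motif letters in capitals. Mcm6 (chr1:128359706-128359955) carries paired E2F-type motifs and CCAAT boxes, and Mki67 (chr7:135716380-135716629) carries CCAAT boxes, TTTGAA and an E2F-type motif.
Mcm6: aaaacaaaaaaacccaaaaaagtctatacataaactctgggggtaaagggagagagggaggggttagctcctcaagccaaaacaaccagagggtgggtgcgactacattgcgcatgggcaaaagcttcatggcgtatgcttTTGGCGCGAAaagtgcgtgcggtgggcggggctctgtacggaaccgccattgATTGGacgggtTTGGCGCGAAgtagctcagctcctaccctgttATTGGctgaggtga
Mki67: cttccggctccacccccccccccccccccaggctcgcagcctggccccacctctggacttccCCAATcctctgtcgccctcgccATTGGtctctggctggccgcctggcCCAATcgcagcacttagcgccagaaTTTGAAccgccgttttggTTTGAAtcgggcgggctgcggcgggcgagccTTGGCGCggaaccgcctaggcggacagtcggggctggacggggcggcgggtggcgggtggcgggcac

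Over all cells, the summed level of the 50 genes was 423 CPM (the usual scale of UMI counts relative to all UMIs of the same cells) in the diabetic day 1 library, 983 on day 3, 974 on day 5 and 1401 on day 7. In the control group it was 381 on day 1, 1106 on day 3, 1770.2 on day 5 and 1017 on day 7. Both groups were lowest on day 1, the control group was highest on day 5 and the diabetic group on day 7. The ratio of the diabetic to the control library was 1.11 on day 1 (95% interval 1.08 to 1.15), 0.889 on day 3 (0.873 to 0.905), 0.550 on day 5 (0.541 to 0.559) and 1.38 on day 7 (1.36 to 1.40). In these libraries the diabetic wounds thus had the lower level on day 5 and the higher level on day 7. The order on day 3 depended on the classes counted, as the ratio was 1.05 (1.03 to 1.07) without T cell-like and NK cell-like cells. Of the 50 genes, 44 had their highest level in the control day 5 library, 5 in the diabetic day 7 library (Mcm4, Cdc6, Uhrf1, Kif11 and Mki67) and 1, Cenpa, in the diabetic day 5 library. The order was lower on day 5 for 49 genes and higher on day 7 for 46, and no gene had all 4 diabetic libraries on 1 side of all 4 control libraries. These counts and those of the highest library were not made over all genes, so they have no background share. The median ratio over all genes with enough UMIs was 0.852 on day 5 and 1.03 on day 7.

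**Figure D1:**
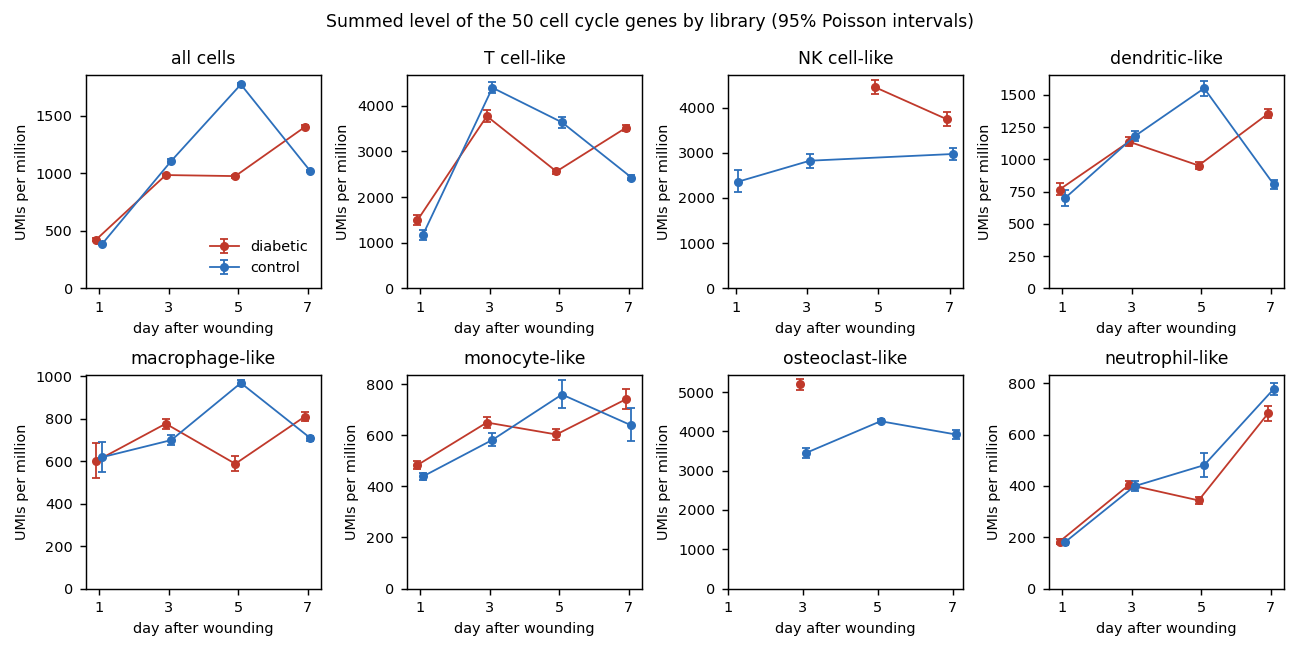
Summed level of the 50 genes in CPM (y axis) against day after wounding (x axis), for all cells and for 7 cell classes, with points for single libraries of the diabetic and control groups, lines only to guide the eye and bars for 95% Poisson intervals. Libraries with under 20 cells of a class have no point, and the diabetic library lies below the control library on day 5 and above it on day 7 in all cells and in T cell-like, dendritic-like, macrophage-like and monocyte-like cells.

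The classes differed widely in level. Over the 8 libraries, osteoclast-like cells had 4184 CPM, NK cell-like cells 3433, T cell-like cells 3073, dendritic-like cells 1113, macrophage-like cells 799.6, monocyte-like cells 548 and neutrophil-like cells 388. Of the 50 genes, 39 were highest in osteoclast-like cells, 8 in NK cell-like cells (Mcm2, Mcm3, Mcm4, Cdc6, Pcna, Cenpe, Kif11 and Mki67), 2 in T cell-like cells (Ccne2 and Cenpf) and 1, Cenpa, in dendritic-like cells. The share of all genes that were highest in each class was not computed. The first rank of osteoclast-like cells depends on how the class is drawn, since they had 1876 CPM at resolution 0.4, below 3142 in T cell-like cells, and 2634 with cells named singly, below 3042 in T cell-like and 2746 in NK cell-like cells. With no mitochondrial filter they had 3609, below 3662 in NK cell-like cells. The order also differed between libraries, and 244 of the 377 osteoclast-like cells came from control day 5. In control day 3, T cell-like cells had 4397 CPM, above 3449 in osteoclast-like cells. Among classes with at least 20 cells, osteoclast-like cells were first in diabetic day 3, control day 5 and control day 7. Neutrophil-like cells, which should not divide, were taken as the comparison for free RNA, although a few of them held many of the genes. In diabetic day 3, 5 such cells with a median of 22 of the 50 genes held 15.5% of the UMIs of the genes in the class, in diabetic day 7, 3 cells with a median of 31 genes held 20.3%, and in control day 7, 8 cells with a median of 31 genes held 29.8%. The neutrophil-like level was higher on later days as well, at 183, 404, 343 and 683 CPM in diabetic wounds and 181, 399, 481 and 777 in control wounds, and the part of free RNA in the other classes was not tested.

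**Figure D2:**
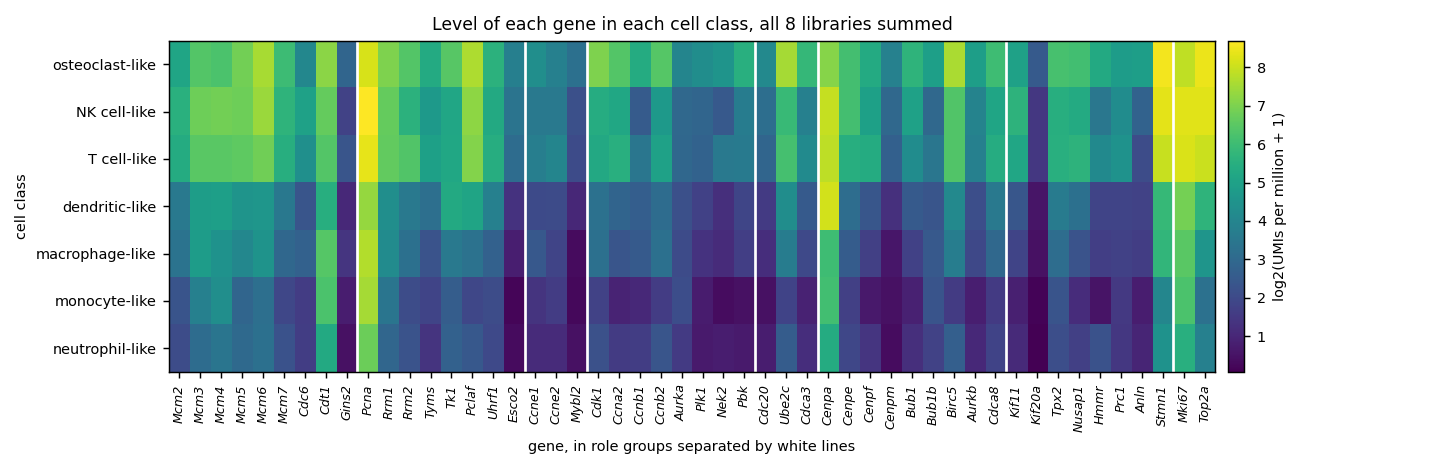
Colour gives log2(CPM + 1) of each of the 50 genes (x axis, in role groups divided by white lines) in 7 cell classes (y axis), summed over the 8 libraries. Pcna, Cdt1, Cenpa and Mki67 are bright in every class, while most of the other 46 genes are bright in osteoclast-like, NK cell-like and T cell-like cells only.

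Pcna, Cdt1, Cenpa and Mki67 made up 44.2% of the UMIs of the 50 genes, from 19.2% in osteoclast-like cells to 73.1% in monocyte-like cells. These 4 genes were singled out after their values were seen. For Pcna, the sliding clamp of the replication fork, the level was 107 CPM in neutrophil-like, 184 in monocyte-like and 333 in T cell-like cells, a narrow range. For Top2a, the topoisomerase that untangles chromosomes, it was 13.1 in neutrophil-like, 8.86 in monocyte-like and 257 in T cell-like cells, a wide range. The other 46 genes summed to 3382 CPM in osteoclast-like, 2359 in NK cell-like, 2136 in T cell-like, 517 in dendritic-like, 356 in macrophage-like, 147 in monocyte-like and 158 in neutrophil-like cells, so without the 4 genes monocyte-like cells lay close to neutrophil-like cells.

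A cell was counted as positive with at least 3 summed UMIs of the 50 genes per 10000 UMIs. The positive share was 96.3% in osteoclast-like, 89.0% in NK cell-like, 84.6% in T cell-like, 84.3% in dendritic-like, 83.5% in macrophage-like, 64.6% in monocyte-like and 35.6% in neutrophil-like cells, with median depths of 22609, 4845.5, 3915, 7428, 8928, 7867.5 and 2474 UMIs. The osteoclast-like share also depends on how the class is drawn, at 51.7% at resolution 1.6, 43.0% with no mitochondrial filter and 71.0% with cells named singly, below the T cell-like share each time. For thinning to 1000 UMIs, 3677 shallower cells were left out, from 25 in control day 7 to 709 in diabetic day 1, of which 2322 were unnamed, 742 neutrophil-like, 259 macrophage-like and 0 osteoclast-like or NK cell-like. Among the 31538 cells thinned, the share with at least 1 UMI of the genes was 72.1%, 69.9%, 63.6%, 55.0%, 50.8%, 38.4% and 21.7% in the same order. The cut falls within a continuous range and does not divide cell types, since 4299 cells (12.2%) lay between 2 and 4 UMIs per 10000. It also let through cells in which few of the genes were seen, so a stricter cut of 50 per 10000, chosen after seeing the data, was added. It was passed by 28.6% of osteoclast-like cells with a median of 38 of the 50 genes seen, by 12.2% of NK cell-like, 10.7% of T cell-like, 2.35% of dendritic-like and 0.827% of macrophage-like cells. Of monocyte-like cells 0.0882% passed, and of neutrophil-like cells 0.203% with a median of 3.5 genes seen. In T cell-like cells, the 265 cells past this cut held 70.3% of the UMIs of the 50 genes in that class. In macrophage-like cells, the 50 cells past it held 9.16%.

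**Figure D3:**
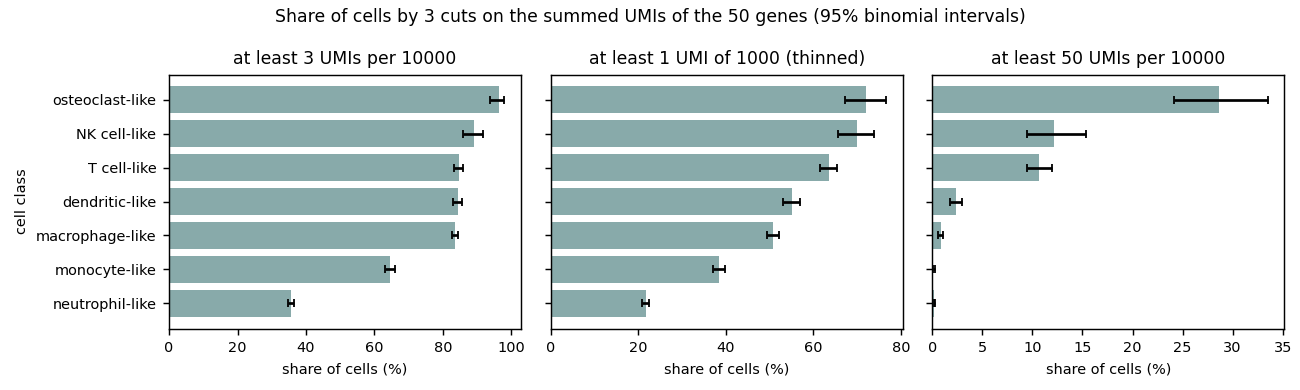
Share of cells in % (x axis) in 7 cell classes (y axis) by 3 cuts on the summed UMIs of the 50 genes, with bars for the 8 libraries together and lines for 95% exact binomial intervals. T cell-like, dendritic-like and macrophage-like cells lie between 83.5% and 84.6% at the loosest cut and at 10.7%, 2.35% and 0.827% at the strictest.

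The genes were also seen together in single cells. Among thinned T cell-like cells with a UMI of Mki67, 45.1% had a UMI of Top2a, against 5.52% of those without Mki67. The same shares were 57.7% and 6.89% in NK cell-like, 59.1% and 13.8% in osteoclast-like, 8.64% and 2.56% in dendritic-like, 4.20% and 2.15% in macrophage-like, 1.498% and 0.680% in monocyte-like and 2.35% and 0.621% in neutrophil-like cells. In percentage points the gap was widest in the 3 classes with the highest summed level, and these are counts of cells within pooled libraries with no test. For Pcna and the helicase gene Mcm5 the shares in T cell-like cells were 7.85% and 3.04%, and in osteoclast-like cells 9.09% and 11.7%.

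The licensing and helicase genes, which load and start the replication helicase, held 20.3% of the UMIs. Cdt1, the licensing factor on chr8:122568015-122573554, was at 52.6, 70.2, 66.4 and 69.4 CPM on days 1, 3, 5 and 7 in diabetic wounds and at 52.8, 78.6, 90.7 and 78.7 in control wounds. Mcm6, on chr1:128331590-128359664, was at 5.30, 27.3, 28.0 and 38.8 CPM in diabetic wounds and at 7.71, 41.7, 61.0 and 34.2 in control wounds. Day 1 was low and day 5 high in control wounds for both, but Cdt1 moved far less than Mcm6. The diabetic to control ratio of Mcm6 was 0.688 (0.528 to 0.893) on day 1, 0.654 (0.590 to 0.724) on day 3, 0.459 (0.417 to 0.503) on day 5 and 1.13 (1.04 to 1.24) on day 7.

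The fork, nucleotide supply and new chromatin genes held 28.2% of the UMIs. Pcna, on chr2:132249162-132253314, was at 133, 194, 169.6 and 207 CPM in diabetic wounds and at 136, 226, 232 and 191 in control wounds. Pclaf, which binds PCNA, was at 1.99, 24.0, 29.9 and 39.7 CPM in diabetic wounds and at 1.91, 36.8, 63.1 and 22.9 in control wounds. Both had their control peak on day 5, and the groups crossed between days 5 and 7. The ratio of Pclaf was 0.474 (0.432 to 0.518) on day 5 and 1.74 (1.57 to 1.92) on day 7, and that of Pcna was 0.731 (0.702 to 0.761) and 1.08 (1.04 to 1.12).

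The G1/S cyclins were the rarest group. Ccne1, a cyclin E that starts S phase with CDK2, was at 1.26, 3.32, 3.78 and 4.93 CPM in diabetic wounds and at 1.17, 7.59, 9.07 and 3.03 in control wounds. Ccne2, the other cyclin E, was at 1.84, 3.85, 4.29 and 4.97 in diabetic wounds and at 1.86, 3.25, 5.54 and 3.25 in control wounds. The ratio on day 5 was 0.416 (0.320 to 0.536) for Ccne1, and for Ccne2 it was 0.774 with an interval of 0.593 to 1.006 that holds 1.

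The G2/M cyclins and kinases and the APC/C and mitotic entry genes showed the widest gap on day 5. The latter are Cdc20, Ube2c and Cdca3, and APC/C is the anaphase-promoting complex. Cdk1, the kinase that drives mitosis, was at 1.68, 13.7, 7.04 and 13.9 CPM in diabetic wounds and at 1.12, 13.8, 42.1 and 13.3 in control wounds. Ccnb2, a cyclin B, was at 1.15, 14.6, 5.55 and 10.97 in diabetic wounds and at 1.70, 10.99, 29.4 and 10.6 in control wounds. Control day 5 was the highest of the 8 libraries for both, and on day 3 Ccnb2 was higher in the diabetic library, with a ratio of 1.33 (1.12 to 1.58). The ratio on day 5 was 0.167 (0.140 to 0.198) for Cdk1 and 0.189 (0.155 to 0.229) for Ccnb2, and on day 7 it was 1.04 for both, with intervals that hold 1. Ube2c, the ubiquitin-conjugating enzyme of the anaphase-promoting complex, was at 2.26, 22.8, 10.5 and 23.8 CPM in diabetic wounds and at 1.59, 13.7, 68.1 and 18.9 in control wounds. Cdca3, which helps trigger mitotic entry, was at 0.420, 6.47, 3.08 and 5.62 in diabetic wounds and at 0.0531, 5.37, 17.5 and 5.04 in control wounds. Both were highest in control day 5, with ratios on day 5 of 0.155 (0.134 to 0.178) for Ube2c and 0.176 (0.134 to 0.228) for Cdca3. The lowest ratio of the 50 genes on day 5 was that of Ccnb1, another cyclin B, at 0.0841 (0.0552 to 0.123).

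Cenpa departed from the rest. This histone H3 variant marks centromeres, and its level was 63.3, 75.4, 170.3 and 158 CPM in diabetic wounds and 46.8, 97.1, 99.3 and 100.9 in control wounds. Its ratio was 1.72 (1.63 to 1.80) on day 5 and 1.57 (1.49 to 1.64) on day 7, so it was the only 1 of the 50 genes with the higher level in the diabetic library on day 5. Its level in dendritic-like cells was 275 CPM, above 230 in T cell-like and 141 in osteoclast-like cells, and within dendritic-like cells it was 366 in the diabetic and 249 in the control library of day 5. Birc5 (survivin), a subunit of the chromosomal passenger complex, was highest in control day 5, at 0.892, 21.8, 12.9 and 30.7 CPM in diabetic wounds and at 0.531, 23.2, 62.5 and 20.2 in control wounds.

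Stmn1, which destabilises microtubules, was at 5.98, 66.2, 64.0 and 88.9 CPM in diabetic wounds and at 7.12, 74.0, 154 and 69.8 in control wounds. Tpx2, a spindle assembly factor, was at 3.36, 12.6, 9.28 and 19.4 in diabetic wounds and at 2.34, 10.3, 27.5 and 10.8 in control wounds. The control day 5 library was the highest for both genes. Mki67, on chr7:135689784-135716361, was at 65.1, 106, 92.1 and 184 CPM in diabetic wounds and at 39.4, 77.3, 135 and 99.2 in control wounds. Top2a, on chr11:98992943-99024189, was at 10.0, 49.0, 45.8 and 89.9 in diabetic wounds and at 6.75, 51.8, 113 and 55.3 in control wounds. Mki67 was highest in diabetic day 7 and Top2a in control day 5. The ratio of Mki67 was 1.65 (1.51 to 1.81) on day 1, 1.38 (1.29 to 1.47) on day 3, 0.680 (0.644 to 0.718) on day 5 and 1.86 (1.77 to 1.94) on day 7. Of the 50 genes, 24 overlap another annotated gene in GENCODE vM21, and as the strand used in counting is not given in the sources used here, reads of such pairs may be mixed.

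By role, the gap in the summed level on day 5 was widest for APC/C and mitotic entry genes and for G2/M genes. It was narrowest for the kinetochore group, where Cenpa held most of the UMIs in the diabetic library. The other genes of that group were all lower in the diabetic library, and a ratio without Cenpa is not given here. The diabetic to control ratio of the summed level was 0.627 for licensing and helicase genes, 0.623 for fork genes, 0.544 for G1/S cyclins with Mybl2 and 0.554 for the chromosome genes Mki67 and Top2a. It was 0.194 for G2/M cyclins and kinases, 0.164 for APC/C and mitotic entry genes and 0.391 for spindle genes. For the kinetochore group, which includes Cenpa, it was 0.816. On day 7 the ratios lay closer together, from 1.20 for licensing and helicase genes to 1.77 for the chromosome genes. Counted gene by gene, 42 of the 50 were at least 1.5-fold lower in the diabetic library on day 5, where the same was true of 31.2% of all genes with at least 50 UMIs over both libraries, and 1 was at least 1.5-fold higher, against 17.5%. The median ratio on day 5 was 0.394 over the 50 genes and 0.852 over all genes. On day 7, 25 of the 48 genes with enough UMIs were at least 1.5-fold higher, against 12.4% of all genes, and 1 was lower, against 8.95%, with a median ratio of 1.53 over the 48 and 1.03 over all genes. On day 3, 12 of 49 were lower (11.7% of all genes) and 3 higher (8.07%). Of those 12, 10 belong to replication or G1/S (Mcm2, Mcm6, Mcm7, Cdc6, Rrm2, Tk1, Pclaf, Uhrf1, Esco2 and Ccne1), and the 3 that were higher were Ube2c, Cenpf and Anln. On day 1, 1 of 28 was lower (3.52%) and 4 were higher (6.28%).

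**Figure D4:**
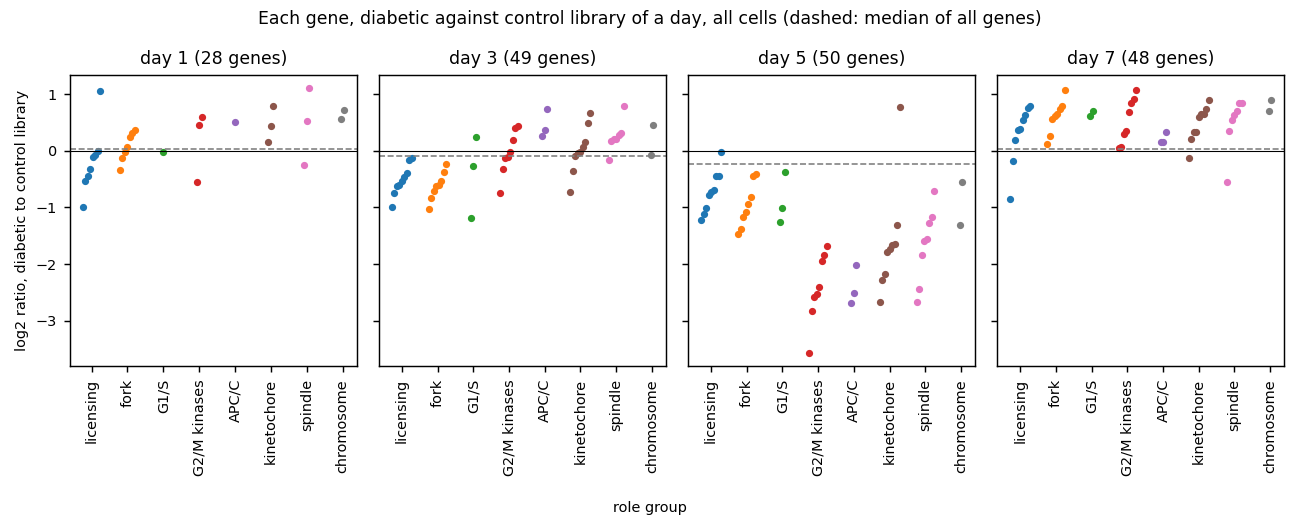
Log2 ratio of the diabetic to the control library of a day over all cells (y axis) for each of the 50 genes with at least 50 UMIs over both libraries, by role group (x axis), with the median of all genes dashed. On day 5 the G2/M genes, the APC/C and mitotic entry genes and most kinetochore and spindle genes lie lowest, with Cenpa alone above 0. On day 7 most genes lie above 0.

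The makeup of the libraries moved with these levels. Osteoclast-like cells were 7.45% of the control day 5 cells and held 47.3% of the UMIs of the 50 genes there. They numbered 244 in that library, 13 in diabetic day 5, 41 and 43 in diabetic and control day 3, 1 and 35 in diabetic and control day 7, and 0 in both day 1 libraries. T cell-like cells were 11.8% of cells in diabetic day 5 and 5.16% in control day 5, and 18.5% and 10.7% on day 7. In diabetic day 7 they held 37.6% of the UMIs of the 50 genes and in control day 7 17.3%. The level was recomputed without these cells, as alternatives added after seeing the data. Without osteoclast-like cells the ratio was 0.822 (0.807 to 0.837) on day 5 and 1.53 (1.51 to 1.56) on day 7. Without T cell-like and NK cell-like cells it was 0.375 (0.367 to 0.382) and 1.08 (1.06 to 1.10), and without all 3 classes 0.584 (0.571 to 0.597) and 1.25 (1.23 to 1.28). With every library set to 1 fixed mix of T cell-like, dendritic-like, macrophage-like, monocyte-like, neutrophil-like and unnamed cells, which leaves out osteoclast-like and NK cell-like cells, it was 0.670 and 1.20. The order of the groups on days 5 and 7 was the same in all of these, and the size of the gap depended on the classes counted. On day 3 the order was not the same in all. The ratio, 0.889 over all cells, was 0.802 without osteoclast-like cells, 0.968 without all 3 classes and 0.988 at the fixed mix. Without T cell-like and NK cell-like cells it was 1.05 (1.03 to 1.07). Without osteoclast-like cells, 25 of 48 genes were at least 1.5-fold lower on day 5, where 25.6% of all genes were, and 1 was higher, against 17.1%. On day 7, 35 of 48 were higher, against 12.7%, and 1 was lower, against 8.76%. The ratios of the G2/M genes and of the APC/C and mitotic entry genes on day 5 were then 0.370 and 0.303. Those of licensing and fork genes were 0.866 and 0.826. The ratio of the kinetochore group, in which Cenpa held most of the UMIs in diabetic day 5, turned to 1.23. Over all cells, Cenpa was the only 1 of the 50 genes with the higher level in the diabetic library on day 5. A ratio of the group without Cenpa is not given here.

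**Figure D5:**
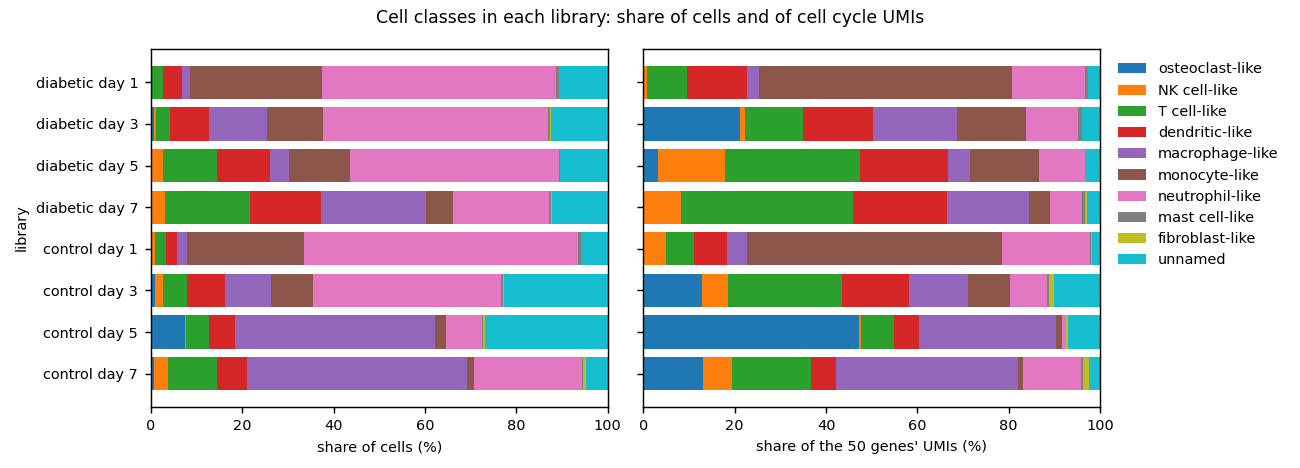
Share of cells (left, x axis in %) and share of the UMIs of the 50 genes (right, x axis in %) that each cell class holds in each of the 8 libraries (y axis). Osteoclast-like cells are 7.45% of cells and 47.3% of these UMIs in control day 5, and monocyte-like and neutrophil-like cells hold most of these UMIs on day 1.

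T cell-like cells had enough cells in every library, from 105 to 677. Their summed level was 1487, 3773, 2560.4 and 3518 CPM on days 1, 3, 5 and 7 in diabetic wounds and 1169.6, 4397, 3638 and 2427 in control wounds. The ratio was 1.27 (1.13 to 1.43) on day 1, 0.858 (0.821 to 0.897) on day 3, 0.704 (0.676 to 0.733) on day 5 and 1.45 (1.40 to 1.497) on day 7. The share of T cell-like cells with at least 50 UMIs of the genes per 10000 was 2.73%, 17.8%, 8.11% and 12.7% in diabetic wounds and 1.90%, 17.97%, 16.6% and 5.81% in control wounds. The intervals of the shares did not overlap on days 5 and 7, at 5.86% to 10.9% against 11.3% to 23.0% on day 5 and 10.3% to 15.4% against 3.93% to 8.24% on day 7. They cover the counting of cells within 1 pooled library each and not the spread between mice. A difference between the groups in these shares was not tested. The positive share by the looser cut was 80.7% against 91.1% on day 5 and 85.5% against 83.6% on day 7. Within T cell-like cells of day 5, licensing and helicase genes had a ratio of 0.983 (0.884 to 1.10). There G2/M cyclins and kinases had 0.391 (0.329 to 0.464) and APC/C and mitotic entry genes 0.333 (0.270 to 0.410). Cdk1 was at 19.5 CPM in the diabetic and 72.9 in the control library there, and Mcm6 at 89.99 and 109. On day 7 the ratio was 1.58 (1.46 to 1.70) for licensing genes and 1.94 (1.67 to 2.26) for G2/M genes. Of 35 genes with enough UMIs, 17 were at least 1.5-fold lower on day 5, against 14.9% of all genes, and 0 higher, against 15.3%. Of 41 genes, 24 were higher on day 7, against 10.7%, and 0 lower, against 7.16%.

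T cell-like cells fell into 2 large groups at a finer clustering. Cells led by Ctla4, Trac and Icos (1550 cells) had 3624 CPM of the 50 genes, and cells led by Il17f, Trdc and Il17a (889 cells), genes of gamma-delta T cells that make IL-17, had 1755. In the Ctla4 cells the day 5 level was 3406 CPM in the diabetic and 3411 in the control library, and on day 7 it was 3919 and 3304. In the Il17f cells it was 1459 and 2857 on day 5, with 29 cells in the control library, and 1599 and 1295 on day 7. The Il17f cells were 232 of the T cell-like cells in diabetic day 5 against 253 Ctla4 cells, and 29 against 133 in control day 5, so the mix of the 2 groups moved with the T cell-like level as well. NK cell-like cells had at least 20 cells in 5 libraries and in both groups on day 7 only, where the level was 3744 CPM in the diabetic and 2974 in the control library, a ratio of 1.26 (1.19 to 1.33).

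Dendritic-like cells had 766, 1137, 953 and 1355 CPM in diabetic wounds and 700.0, 1179.5, 1552 and 807 in control wounds. The ratio was 0.614 (0.585 to 0.644) on day 5 and 1.68 (1.595 to 1.77) on day 7. Cells with at least 50 UMIs of the genes per 10000 made up 1.62% of the diabetic and 5.43% of the control library on day 5, against 2.63% and 0.324% on day 7. Of 21 genes with enough UMIs, 12 were at least 1.5-fold lower on day 5 (9.60% of all genes) and 0 higher (9.33%). Of 28 genes, 17 were higher on day 7 (7.82%) and 0 lower (5.32%). Top2a in these cells was at 31.7 CPM in the diabetic and 85.9 in the control library on day 5, and at 73.2 and 23.1 on day 7. Mki67 was at 58.0 and 186 on day 5 and at 166 and 74.9 on day 7. Both genes thus changed places between the groups over these days. Cells led by Cd209a and Mgl2 had 1208 CPM of the genes and those led by Fscn1, Ccl22 and Ccr7, markers of mature migratory cells, had 769.

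Macrophage-like cells had 600.4, 776, 587 and 809.7 CPM in diabetic wounds and 618, 699, 968 and 708 in control wounds. The ratio was 0.607 (0.569 to 0.647) on day 5, when the diabetic library held 173 of these cells and the control library 1431, and 1.14 (1.11 to 1.18) on day 7. Different clusters held most of the class on these days. Cells led by Ms4a7, Gpnmb and Fcrls were 131 of the 173 and 1028 of the 1431 on day 5, with 564 and 979 CPM, and on day 7 they were 54 and 36 cells with 567 and 602. Cells led by Igf1, Gdf15 and Apoe were 664 of 844 and 1990 of 2240 on day 7, with 825 and 711 CPM, and on day 5 they were 20 and 96 cells with 859.5 and 1154. Cells led by Retnla, Ccl8 and Lyve1 were 22 and 307 on day 5, with 693 and 858 CPM. On day 7 they were 126 and 214 cells with 853 and 710. Of 41 genes with enough UMIs, 31 were at least 1.5-fold lower on day 5 (14.0% of all genes) and 0 higher (8.67%). Of 35 genes, 9 were higher on day 7 (6.48%) and 2 lower (6.39%). Monocyte-like cells had 484, 650.4, 604 and 742 CPM in diabetic wounds and 439, 582, 760.1 and 639 in control wounds. Here 73.1% of the UMIs came from Pcna, Cdt1, Cenpa and Mki67, and no monocyte-like cell of the control group passed 50 per 10000, which allows shares of up to 0.265%, 0.677%, 3.70% and 4.29% on days 1, 3, 5 and 7. The monocyte-like ratio was 0.794 (0.732 to 0.862) on day 5 and 1.16 (1.04 to 1.30) on day 7.

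Osteoclast-like cells were compared with macrophage-like cells of the same library, as a description. The summed level was 6.69 times as high in diabetic day 3 (41 osteoclast-like cells), 4.93 in control day 3 (43 cells), 4.40 in control day 5 (244 cells) and 5.54 in control day 7 (35 cells). In control day 5 the ratio was 12.4 for Pclaf, 10.1 for Top2a, 9.20 for Birc5, 9.06 for Cdk1, 8.33 for Ube2c and 5.22 for Stmn1, and 2.40 for Mki67, 2.37 for Cenpa, 1.78 for Cdt1 and 1.36 for Pcna. By role it ranged from 3.02 for fork genes to 8.78 for APC/C and mitotic entry genes. The value rests on how the class is drawn, since at a coarser clustering, where the class took in 2098 cells, it was 1.90, and with cells named singly it was 2.99. Macrophage markers summed to 4524 CPM in osteoclast-like and 21679.9 in macrophage-like cells, and T cell markers to 63.8 and 132. The part of doublets in these deep cells was not tested.

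Tests over the 8 libraries used UMIs summed per library. With day as a block, the group test set the difference between the groups against how that difference varied from day to day. A difference that turns between days, as from day 5 to day 7, adds to that spread. The tests of change per day used the departure of the pooled libraries from straight lines over days. None of these p-values measures the spread between mice. Between the diabetic and control groups with day as a block, edgeR's quasi-likelihood test with Benjamini-Hochberg adjustment called 0 of the 50 genes, as it called 0.0% of all 13857 genes, and DESeq2 called 0 of the 50 and 0.664% of all genes. At an unadjusted p under 0.05 there were 2 of the 50 (4.0%), Gins2 and Mcm6, a smaller share than over all genes (1521 of 13857). Mcm6 had a log2 fold change of -0.48 (SE 0.19) and an adjusted p of 0.451 by edgeR, with the diabetic level lower on 3 of the 4 days. The median log2 fold change of the 50 genes was -0.21, it turned to 0.19 without day 5, and it was -0.44 without day 7. With day as a number, edgeR called 0 of the 50 for a change per day, where it called 10.3% of all genes, 460 up and 918 down. That share rests on single libraries, as it was 0.0797% without diabetic day 1, 0.0220% without diabetic day 7, 0.00724% without control day 1 and 1.71% without control day 7. At an unadjusted p under 0.05 there were 23 of the 50 (46.0%), against 31.2% of all genes, and 48 of the 50 had a positive slope with a median of 0.29 on the log2 scale per day, which was 0.19 without diabetic day 1 and 0.17 without control day 1. The smallest adjusted p values by edgeR were 0.0513 for Kif11 (log2 0.43 per day, SE 0.12), a spindle motor, 0.0586 for Mki67 (0.15, SE 0.04) and 0.0784 for Top2a (0.39, SE 0.13). DESeq2 called 22 of the 50 for the same term, all up, where it called 21.4% of all genes, so the call depends on the tool. The difference between the groups in change per day was called by edgeR for 0 of the 50 and for 0.0% of all genes. At an unadjusted p under 0.05 there were 0 of the 50 and 1.73% of all genes. DESeq2 called 0 of the 50 and 0.0144% of all genes for this term.

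Within classes the same edgeR tests called 0 of the genes tested. Between the groups these were 46 genes in T cell-like (0.0% of all genes called), 43 in macrophage-like (0.0728%), 40 in dendritic-like (0.0101%) and 36 in monocyte-like cells (0.00982%), with 1, 1, 0 and 1 of them at an unadjusted p under 0.05, where 3.65%, 8.95%, 5.92% and 7.54% of all genes were. For the change per day they were 43 (0.105%), 38 (0.790%), 36 (0.421%) and 29 genes (0.995%), with 0, 3, 0 and 8 at an unadjusted p under 0.05, where 7.87%, 10.9%, 11.8% and 13.7% of all genes were. DESeq2 called 2 of the 29 in monocyte-like cells for the change per day, where it called 3.56% of all genes, and 0 of the genes in each of the other 7 tests, where it called 0.0% to 1.82% of all genes. Tests within a class were made where at least 3 days held both groups, and NK cell-like cells, with both groups on 1 day and 5 libraries in all, were not tested.

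Other genes of the cell cycle were taken from lists. For the change per day over all cells, edgeR called 3 of 8 antiproliferative and damage response genes, all down. These were Gadd45a, which arrests cells after stress (log2 -0.55 per day, SE 0.09, adjusted p 0.0239), Gadd45b (-0.23, SE 0.05, adjusted p 0.0370) and the p53 inhibitor Mdm2 (-0.16, SE 0.04, adjusted p 0.0337). Of 20 other replication genes, Atad2 was called up (0.21, SE 0.05, adjusted p 0.0328), and of 46 other mitotic genes, Knl1 (0.38) and Smc2 (0.36) were called up and Ckap2l (-0.35), Ccnf (-0.35) and Pttg1 (-0.11) down. With 10.3% of all genes called for this term, the 1 of 20 replication genes lies below that share and the 5 of 46 mitotic genes close to it, and that share rests on single libraries as given above. Of 6 G1 cyclins and kinases, 7 CDK inhibitors and 12 pocket protein, E2F and DREAM genes, 0 were called for the change per day. Gadd45a also fell in T cell-like cells (-0.34 per day, SE 0.05, adjusted p 0.0426 by edgeR) and in macrophage-like cells (-0.24, SE 0.05, adjusted p 0.0359 by edgeR). The T cell-like call ends without diabetic day 1, when edgeR called 0 of 9122 genes, and in macrophage-like cells 1 gene of 10484 was called without diabetic day 7. Between the groups, 0 genes of these lists were called over all cells.

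Outside the 50 genes, the genes whose log2(CPM + 1) ran closest to the summed level over 49 sums of library and class with at least 20 cells, among 11398 genes with at least 200 UMIs, were Pola1 (Pearson r 0.958), Smc2 (0.958), Lig1 (0.957), Dnajc9 (0.9503), Rbl1 (0.947), Tacc3 (0.944), Cks1b (0.938), Topbp1 (0.938), Hells (0.936) and Racgap1 (0.935). Of these, 8 are in the other lists above and Dnajc9 and Topbp1 are not. The sums share libraries and depths, so the values are a description.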

How the data were processed

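UMI counts per gene and cell barcode were deposited by the authors as 8 tables, 1 for each library, as raw whole numbers with no normalization. Per the paper's methods, the authors trimmed reads with fastp (version 0.20.1 in the submitters' processing notes), used UMI-tools for barcodes and STAR for alignment against Ensembl 92 (GRCm38), while the processing notes name mm9. The paper names the BD Rhapsody system and the series record names 10X Genomics. The sample titles give a group and a number, which the paper identifies as the day.

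Cells were barcodes with more than 200 genes detected and less than 20% of UMIs mitochondrial, and mitochondrial genes were then dropped. In scanpy 1.11.5, log values of counts per 10000 UMIs of 2000 variable genes without cell cycle genes gave 10 principal components, a graph of 30 neighbours and leidenalg 0.10.2 clusters at resolution 0.8. Clusters were named from marker lists. Marker lists of endothelial cells, Langerhans cells, plasmacytoid dendritic cells, basophils, erythroid cells, keratinocytes and B cells named 0 clusters at this resolution. The 148 mast cell-like and 57 fibroblast-like cells were too few for most libraries. Scrublet was run in scanpy and no cell was removed as a doublet. Barcodes carry running names, so cells shared between libraries could not be looked for.

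Levels are UMIs summed over cells as CPM of all UMIs of those cells, with exact 95% Poisson intervals. Shares have exact binomial (Clopper-Pearson) intervals, and 0 cells were given a limit of 3 counts. Intervals and limits cover counting error only. edgeR 4.0.16 in R 4.3.3 (quasi-likelihood F test, TMM with factors of 0.788 to 1.16, filterByExpr, two-sided, Benjamini-Hochberg over all genes tested, threshold 0.05) was fitted to sums of classes with at least 20 cells in a library, and DESeq2 1.42.0 was an alternative. On simulated data for the group test over all cells (13857 genes), edgeR recovered 120 of 200 genes changed by a log2 of 1 and 197 of 200 changed by a log2 of 2. The simulation gave every gene a dispersion of 0.05, no change over days and the same group difference on every day. The real libraries differed in makeup and over days, so these counts do not give the power of the test on them. Python 3.11.15, numpy 2.4.6, scipy 1.17.1, pandas 2.3.3 and matplotlib 3.10.9 were used.

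Genes named with values are the 2 with the most UMIs in each role, genes past the threshold and 6 fixed genes (Mki67, Top2a, Stmn1, Pclaf, Ube2c, Birc5). Other genes, such as Kif11, Ccnb1 and Gins2, were named after their values were seen. The 50 genes, the lists, the roles and the tests were chosen with earlier results of these data known. Alternatives tried were other resolutions, cell filters, cuts, thinning, cells named singly, cell cycle genes kept in clustering, genes left out, size factors, no filter on low counts, DESeq2 and libraries or days left out. Classes left out, the fixed mix, the cut of 50 per 10000 and the omission of Pcna, Cenpa, Mki67 and Cdt1 were added after seeing the data.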

Additional observations from a re-analysis of the deposited data

Results flagged for a closer look

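The direction of the difference between the diabetic and control libraries turned between day 5 and day 7 over all cells and in 4 classes. The ratio of the summed level of the 50 genes was 0.550 on day 5 and 1.38 on day 7 over all cells. It was 0.704 and 1.45 in T cell-like cells, 0.614 and 1.68 in dendritic-like cells, 0.607 and 1.14 in macrophage-like cells and 0.794 and 1.16 in monocyte-like cells. Within T cell-like cells, the larger group, led by Ctla4, was at 3406 CPM in the diabetic and 3411 in the control library on day 5 and at 3919 and 3304 on day 7, and the group led by Il17f, with 29 cells in control day 5, was at 1459 and 2857 on day 5. In macrophage-like cells, the cluster that held most of them on day 5, led by Ms4a7 and Gpnmb, was at 564 CPM in the diabetic and 979 in the control library on day 5 and at 567 and 602 on day 7, so it was lower in the diabetic library on both days. The day 7 values of this cluster rest on 54 and 36 cells. The other clusters of the class turned, with few diabetic cells on day 5. Cells led by Igf1 and Gdf15 were at 859.5 and 1154 on day 5 (20 and 96 cells) and at 825 and 711 on day 7. Cells led by Retnla and Ccl8 were at 693 and 858 on day 5 (22 and 307 cells) and at 853 and 710 on day 7. Each value compares 1 library with 1 library, so the difference between the days was not tested. Over days taken as a number, the difference in slope between the groups was called by edgeR for 0 of the 50 genes. It was also called for 0.0% of all 13857 genes. Neutrophil-like cells, at 0.714 and 0.878, and unnamed cells, at 0.629 and 0.963, were below 1 on both days. The control day 5 library is in every day 5 ratio, and its makeup and depth stood apart from the other 7.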

How the results depend on the processing

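Leaving out genes or classes kept the order of the groups over all cells on days 5 and 7. On day 3 the order turned without T cell-like and NK cell-like cells. Against ratios of 0.550 and 1.38, the level without Stmn1, Pcna and Mcm2 to Mcm7 gave 0.527 and 1.48, without Pcna, Cenpa, Mki67 and Cdt1 0.392 and 1.43, without osteoclast-like cells 0.822 and 1.53, without T cell-like and NK cell-like cells 0.375 and 1.08, without these and osteoclast-like cells 0.584 and 1.25, and at a fixed mix of classes without osteoclast-like and NK cell-like cells 0.670 and 1.20. Without unnamed cells it was 0.541 on day 5. The positive share on day 5 was 24.3 percentage points lower in the diabetic library. The difference was -26.4 points with at least 500 genes per cell, -18.3 with no mitochondrial filter, -16.6 without Stmn1, Pcna and the Mcm genes, -13.3 at 10 per 10000, -16.0 in thinned cells, -31.9 with 3 UMIs of 2 genes required and -4.49 at 50 per 10000. On day 7 it was -0.945 points, against 3.73 with at least 500 genes, 6.04 without Stmn1, Pcna and the Mcm genes, 10.9 at 10 per 10000, 5.51 in thinned cells, 5.52 without Pcna, Cenpa, Mki67 and Cdt1 and 2.24 at 50 per 10000. It kept its sign at -1.44 with 3 UMIs of 2 genes required and -1.18 with no mitochondrial filter, so its direction depends on the cut, the gene list and the cell filter. In dendritic-like cells on day 7 it was 7.48 points and -3.70 with cells named singly. The cause of these shifts was not tested. The ratio of osteoclast-like to macrophage-like cells in control day 5, 4.40, was 5.80 with cell cycle genes kept in the clustering, 1.90 at resolution 0.4, 2.99 with cells named singly, 4.23 with at least 500 genes, 4.05 with no mitochondrial filter, 5.48 without Stmn1, Pcna and the Mcm genes and 6.70 without Pcna, Cenpa, Mki67 and Cdt1. It could be formed in 4 libraries, and in 7 at resolutions 0.4 and 1.6. For the change per day over all cells, 0 genes were called by edgeR (10.3% of all genes), 22 by DESeq2 (21.4%), 1 with RLE size factors (11.3%), 2 with no filter on low counts (6.75%) and 0 to 3 without 1 library each, where 0.00724% to 11.8% of all genes were called (3 without diabetic day 3, 1 without diabetic day 5 and 1 without control day 5). In monocyte-like cells 0 were called (0.995% of all genes), against 2 by DESeq2 (3.56%) and 1 with no filter (2.37%). Without 1 library each, 0 to 1 were called, where 0.106% to 2.36% of all genes were. The 1 was called without diabetic day 3, where 1.14% of all genes were. Of all values recomputed, 151 that answer a comparison and 110 others kept their value or call, and 44 and 65 moved. Many of the 151 are tests that called 0 of the genes both times, so they say little about how stable the results are. Of the others, 1, the dendritic-like share above, reversed from a value whose interval excludes 0. The all-cell share on day 7 changed sign as given above, from a value whose interval, -2.79 to 0.896, holds 0. The tests in NK cell-like cells were not run, under the rule of 3 days with both groups. The group test paired the libraries by day, as a block. No paired analysis by replicate number was possible because each group had 1 library a day. Shares in shallow cells and levels of genes with under 50 UMIs are limited by depth.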
